A study of Mus musculus with 16 samples.

Results

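Sperm RNA of Dnmt2-/- males was searched for regions that were recovered again and again with the DNA and never in the free RNA of the same animals. The peaks of 8 lists were pooled, overlapping peaks were merged into regions when they shared at least 1 base, and a region was kept when at least 2 of the 4 DNA-bound lists and none of the 4 free lists held a peak in it. Of 141071 merged regions, 6417 met this rule, which is 4.55%. The same rule turned round, with at least 2 free lists and no DNA-bound list, was met by 1762 regions, which is 1.25%. The regions were chosen by the presence of a peak in the DNA-bound lists and its absence from the free lists, so that contrast is a description and was not tested. The absence of a peak says that a caller's threshold was not reached and not that the RNA was absent.

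The lists came from spermatozoa of 4 male mice, 6 to 8 months old, which carried the Dnmt2-/- genotype on the C57BL/6 background in every group. Males 1 and 2 were kept on a normal diet (ND) and males 3 and 4 on a high-fat diet (HFD) made with butter, given in the labels as 21% or 35%. Each male gave a free fraction (F), the RNA that left the sperm in the aqueous phase, and a DNA-bound fraction (D), the RNA that was freed from purified genomic DNA by DNase. The 4 D lists are called D1 to D4 and the 4 F lists F1 to F4 after the male, so each diet was represented by 2 males and no wild-type library enters any comparison here.

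Dnmt2, also called Trdmt1, is an RNA cytosine methyltransferase that acts mainly on transfer RNAs. RNA that stays paired with one DNA strand forms a DNA/RNA hybrid, called an R-loop when the other DNA strand is left unpaired, and such hybrids are favoured where the RNA strand is rich in purines. Simple repeats are short units copied in tandem. A repeat whose unit holds only A and G on one strand, and so only C and T on the other, is a purine/pyrimidine tract, known for hybrids and for triple-stranded DNA, whereas CA/TG repeats alternate purines and pyrimidines.

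The D lists held 3427 to 49918 peaks and the F lists 7635 to 25406. The lowest peak rested on 6 tags (sequenced fragments) in every list except D2, where it rested on 14, and the median peak width was 189 to 400 bases in D lists and 170 to 226 bases in F lists. No D list held an exon or untranslated-region peak of any of 18 sperm and spermatid genes or 16 epididymal genes that were looked up. F1 held such peaks for 10 of the 18 and for 16 of the 16. F2, F3 and F4 held 0 of the 18, and 0, 12 and 1 of the 16 in that order. Of 7 leukocyte and 5 erythroid genes F1 held 1 and 2, and every other list 0. The labelled cell type therefore could not be checked from messenger RNA in the D lists or in F2, and F3 and F4 showed no sperm gene. D1 was the shortest list and D2 the longest, which bears on every count below, and the part of epididymal RNA in F1 and F3 was not tested.

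Most of the recurrent regions could be shown only by coordinates, but 49 of them, 0.795% of those on the chromosomes used, had at least 100 bases of reference sequence in a RefSeq promoter window or in an exon of a GENCODE non-coding gene. Of these 49, 23 held an unbroken run of at least 20 purines or 20 pyrimidines, which is 46.9%. Among 770 regions of 1 D list alone with such sequence, 182 did, or 23.6%, and among 80 D regions with a free peak 25 did, or 31.2%. Among 32815 RefSeq promoter windows the share was 6.57%. Those windows were searched whole, whereas most of the 49 stretches came from exons and were of other lengths, so that share is no matched background. The 3 sequences that follow show what such a run looks like, on the forward strand of GRCm38 (mm10), with the longest run in capitals. They and the contrasting pair after them were chosen after the sequences had been read. The first, in the promoter window of the predicted gene Gm51694 at chr9:112087023-112087317, belonged to a region with a peak in all 4 D lists, with 29 tags in D1, 43 in D2, 60 in D3 and 23 in D4.
Gm51694, annotated (GAA)n: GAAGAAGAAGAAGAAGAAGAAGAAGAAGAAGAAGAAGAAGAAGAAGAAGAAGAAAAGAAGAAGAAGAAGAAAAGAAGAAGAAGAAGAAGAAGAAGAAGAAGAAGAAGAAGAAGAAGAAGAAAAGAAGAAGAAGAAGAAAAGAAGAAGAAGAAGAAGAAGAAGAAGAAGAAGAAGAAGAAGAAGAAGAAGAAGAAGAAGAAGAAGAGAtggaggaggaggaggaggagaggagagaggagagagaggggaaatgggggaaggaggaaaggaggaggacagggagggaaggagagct
Gm46516, annotated (GAA)n, chr15:55959215-55959514: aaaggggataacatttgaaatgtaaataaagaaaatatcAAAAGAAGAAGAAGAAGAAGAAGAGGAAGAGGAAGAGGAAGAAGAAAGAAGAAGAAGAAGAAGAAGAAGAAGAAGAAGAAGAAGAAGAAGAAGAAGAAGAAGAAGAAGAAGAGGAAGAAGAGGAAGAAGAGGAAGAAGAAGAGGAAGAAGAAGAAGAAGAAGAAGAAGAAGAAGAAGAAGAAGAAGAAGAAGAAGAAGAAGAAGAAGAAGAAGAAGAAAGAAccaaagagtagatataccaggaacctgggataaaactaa
Gm44587, annotated (GAAA)n, chr7:6901558-6901857: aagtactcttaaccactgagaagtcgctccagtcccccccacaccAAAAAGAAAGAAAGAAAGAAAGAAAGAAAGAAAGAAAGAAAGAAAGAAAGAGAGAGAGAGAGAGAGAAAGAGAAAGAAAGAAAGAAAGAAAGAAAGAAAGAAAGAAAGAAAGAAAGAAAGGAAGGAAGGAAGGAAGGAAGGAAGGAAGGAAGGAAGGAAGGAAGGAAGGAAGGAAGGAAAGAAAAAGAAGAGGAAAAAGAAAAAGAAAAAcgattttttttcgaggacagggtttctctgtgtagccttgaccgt
The runs measured 207, 222 and 210 bases in that order. In Gm51694 98.3% of the bases shown were A or G. The region at Gm46516 carried 34 tags in D2 and 30 in D3, and that at Gm44587 33 and 11 in the same lists.

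For contrast, 2 members without such a run are given. The first is a CA repeat in an exon of Gm40264 with 45 tags in D2 and 45 in D3, and the second the promoter window of Cd207, the gene of langerin, with 32 tags in D2 and 74 in D3. The longest run was 10 bases in each, again in capitals.
Gm40264, annotated (CA)n, chr5:9038951-9039250: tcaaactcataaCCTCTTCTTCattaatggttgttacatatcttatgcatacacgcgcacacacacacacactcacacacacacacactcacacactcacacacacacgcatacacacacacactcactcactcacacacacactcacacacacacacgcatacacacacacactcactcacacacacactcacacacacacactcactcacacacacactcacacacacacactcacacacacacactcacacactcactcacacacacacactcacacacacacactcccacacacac
Cd207, promoter peak, chr6:83677938-83678107: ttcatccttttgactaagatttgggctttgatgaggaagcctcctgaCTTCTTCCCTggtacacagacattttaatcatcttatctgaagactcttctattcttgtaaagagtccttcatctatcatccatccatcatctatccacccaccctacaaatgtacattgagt

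Recurrence among D lists was mostly low. Of the 6417 members, 5306 (82.7%) were held by 2 lists, 993 (15.5%) by 3 and 118 (1.84%) by all 4. D2 held 5519 members, D3 4219, D4 3817 and D1 508. The commonest combinations were D2 with D3, 2317 regions, and D2 with D4, 1949, followed by D2, D3 and D4 together, 899, and by D3 with D4, 744. D1 with D2 shared 165 regions that no other list held. As a share of each list's regions without a free peak, D2 and D3 had 7.45% of D2 and 15.8% of D3 in common, and D3 and D4 had 8.35% and 8.99%.

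**Figure D1:**
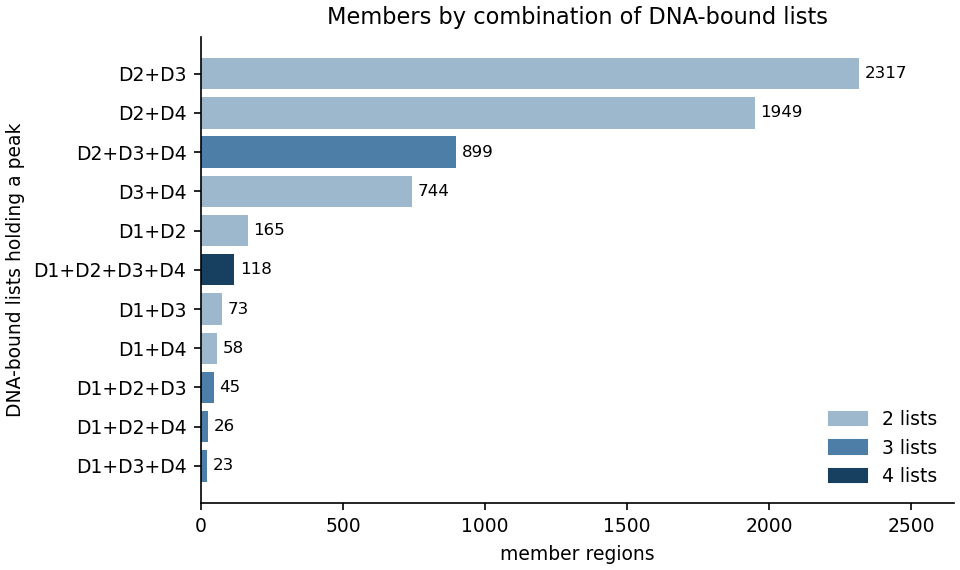
Number of member regions (horizontal axis) for each combination of DNA-bound lists that held a peak (vertical axis), shaded by the number of lists. The 2 longest bars, 2317 and 1949, are the combinations of D2 with D3 and of D2 with D4, and 118 regions were held by all 4 lists.

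A free peak was more frequent at regions that more D lists held. At 2 D lists 715 of 6021 regions (11.9%) had a free peak, at 3 lists 240 of 1233 (19.5%) and at 4 lists 136 of 254 (53.5%). Just outside the rule lay 75566 regions of 1 D list without a free peak and 770 regions of at least 2 D lists with exactly 1 free list. The nearest free peak was a median of 19819 bases from a member, but 270 members (4.21%) had one within 1000 bases, 46 within 100 bases, and the closest lay 3 bases away. The bases common to all lists of a member numbered 189 at the median, and for 205 members (3.19%) they were fewer than 20. List length and peak width moved with these counts, D2 being the longest list with the widest peaks, and their part was not tested.

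Purine/pyrimidine repeats were the commonest class of repeat in the members. Peaks were assigned to the repeat at their centre, and this class took in simple repeats whose unit held only A and G or only C and T, together with GA-rich, CT-rich, polypurine and polypyrimidine low-complexity sequence. It was defined after the repeat names of the members had been seen. Peaks annotated to a promoter, a gene end, an exon or an untranslated region, 239 of 14041 member peaks (1.70%), carried a repeat name in 0 cases in the D lists, so that repeats there are not known. In D1 it held 271 of 508 member peaks (53.3%), in D2 2477 of 5509 (45.0%), in D3 2411 of 4213 (57.2%) and in D4 1954 of 3811 (51.3%). Every D list lay far below this among peaks that no other list shared, at 7.13% in D1, 11.1% in D2, 16.4% in D3 and 13.4% in D4. Counted by region, 3618 of 6403 members with annotation (56.5%) had such a repeat under at least 1 peak, and 2614 (40.8%) under every peak.

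The mean share was 51.7% ± 5.13 (SD, n = 4 lists) in members and 12.0% ± 3.91 in regions of 1 D list alone. The difference was 39.7 percentage points, 33.9 to 46.2 over the lists, and was positive in 4 of 4 lists (exact sign-flip permutation test, two-sided, p = 0.125, which is the smallest p that 4 lists allow, adjusted p = 0.167 over 4 classes). Against D peaks at regions with a free peak, 22.7% ± 6.54, it was 29.0 points, again positive in 4 of 4 lists (exact p = 0.125). A region held by several lists enters each of them, so the 4 differences are not fully independent.

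Recurrence in the free fraction was examined in the same way. Regions of at least 2 F lists without a D peak had 4.84% ± 2.83 of their peaks at purine/pyrimidine repeats and regions of 1 F list 3.64% ± 1.82, a difference of 1.20 points that was positive in 3 of 4 lists (exact p = 0.5). The contrast in the D lists exceeded that in the F lists of the same male by 38.5 points, positive in 4 of 4 males (exact p = 0.125, adjusted p = 0.188 over 3 classes). This comparison was added after the data had been seen. Exon peaks, which carried no repeat name in the D lists, occurred in 30.7% of regions recurrent in F lists only. They occurred in 22.6% of regions of 1 F list and in 0.0625% of members. Whether such peaks carried repeat names in the F lists was not looked up. The part of annotation in the low free shares was therefore not tested. CA or TG repeats stood at 2.50% of member peaks against 2.00% of peaks of 1 D list, positive in 3 of 4 lists (exact p = 0.25), and 7.39% at D peaks of regions with a free peak, higher than in members in 4 of 4 lists (exact p = 0.125).

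**Figure D2:**
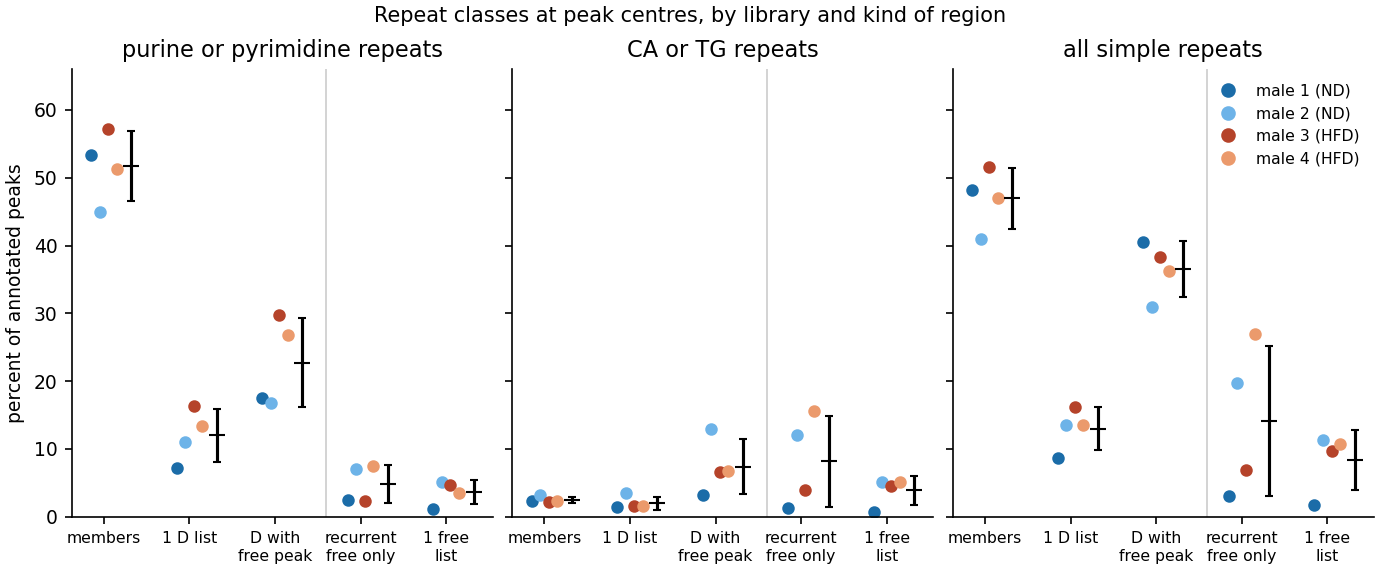
Percent of annotated peaks (vertical axis) at purine or pyrimidine repeats, at CA or TG repeats and at all simple repeats, for members, regions of 1 DNA-bound list, DNA-bound peaks at regions with a free peak, regions recurrent in free lists only and regions of 1 free list. Points are libraries coloured by male, and bars give the mean and SD of 4 libraries. In the first panel all 4 member points, 45.0% to 57.2%, lie above every other point.

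The share of purine/pyrimidine repeats differed with the number of D lists and with the presence of a free peak. Without a free peak it was 12.0% ± 3.91 at 1 list, 44.1% ± 5.89 at 2 lists, 70.8% ± 2.57 at 3 lists and 68.9% ± 2.68 at 4 lists. The step from 2 to 3 lists was 26.7 points and positive in 4 of 4 lists (exact p = 0.125), whereas that from 3 to 4 lists was -1.89 points and split 2 against 2 (exact p = 0.5). With a free peak the shares were 17.7% ± 3.55, 32.6% ± 7.78, 44.1% ± 2.86 and 8.27% ± 1.59. At 3 or 4 D lists the members exceeded the regions with a free peak by 42.8 points, 37.1 to 54.2, in 4 of 4 lists (exact p = 0.125), a comparison added after the data had been seen.

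The low value at 4 D lists with a free peak belonged to another repeat. Telomere repeats, (TTAGGG)n or (CCCTAA)n, made up 248 of the 520 D peaks at those 136 regions (47.7%), and a further 15.96% lay in ribosomal RNA repeats. At the 118 members held by all 4 D lists, 0 of 473 peaks lay in telomere repeats, which allows a share of up to 0.634% if peaks are counted as independent. They are not, since the same 118 regions enter every list, so this limit is too low. Of the 473 peaks, 142 (30.02%) lay in (GAAA)n or (TTTC)n, against 11 of 520 (2.12%) at the regions with a free peak. Over all members 41 of 14041 peaks (0.292%) were telomere repeats.

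**Figure D3:**
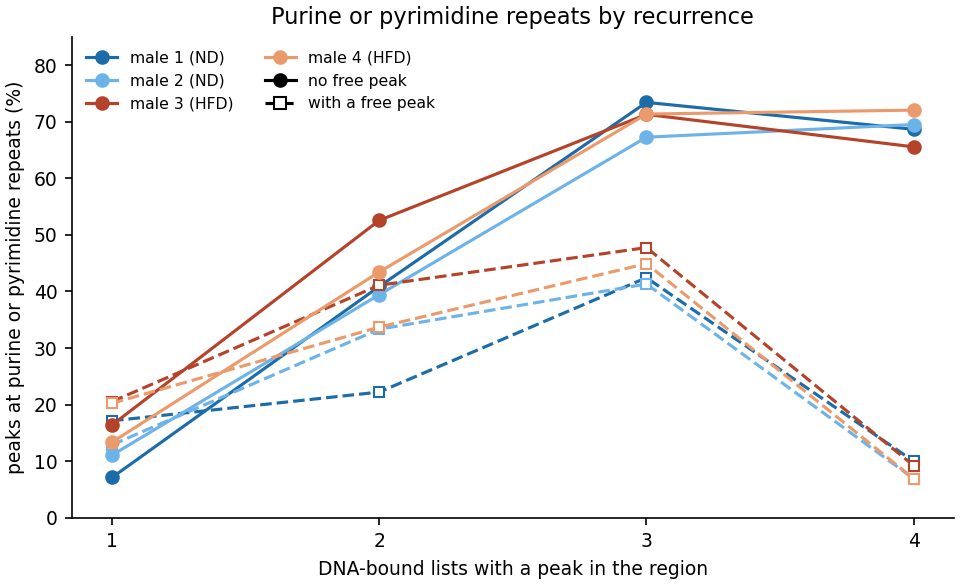
Percent of annotated D peaks at purine or pyrimidine repeats (vertical axis) by the number of DNA-bound lists with a peak in the region (horizontal axis), 1 line per male. Filled circles are regions without a free peak and open squares regions with one. The lines without a free peak reach 65.5% to 72.0% at 4 lists and those with a free peak 6.92% to 10%.

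Simple repeats of every unit together made up 47.0% ± 4.45 of member peaks, against 13.0% ± 3.15 of peaks of 1 D list and 36.5% ± 4.13 of D peaks at regions with a free peak. The members were higher by 34.0 and by 10.4 points, in 4 of 4 lists each (exact p = 0.125 for both). The second difference was 20.1 points without male 2. Low-complexity sequence took 17.4% against 5.82%, 11.6 points more in 4 of 4 lists (exact p = 0.125, adjusted p = 0.154 over 16 classes).

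Among the 6467 member peaks in simple repeats, 47.3% had a unit of A and G only and 41.4% one of C and T only, and 49.96% had a unit of 4 bases. The 6 units compared here and below were those with the most member peaks. They were thus chosen from these same data, and that choice favours a higher share in members. The tetramer GAAA or its complement TTTC led, with 34.7% ± 2.52 of member simple repeats against 18.2% ± 5.64 in regions of 1 D list (positive in 4 of 4 lists, exact p = 0.125, adjusted p = 0.15 over 6 units). GAA or TTC followed with 14.0% ± 1.30 against 9.82% ± 4.59, and GGA or TCC with 7.82% ± 2.83 against 4.56% ± 1.67, each higher in 4 of 4 lists (exact p = 0.125). GGAA or TTCC stood at 11.3% against 10.1% and was higher in 3 of 4 lists (exact p = 0.25).

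Dinucleotide units took a smaller part of the simple repeats in members. GA or TC, a purine/pyrimidine repeat, made up 7.04% ± 0.370 of member simple repeats and 13.9% ± 0.741 of those in 1 list, lower in 4 of 4 lists (exact p = 0.125), and CA or TG took 5.44% ± 1.58 and 15.9% ± 7.28, also lower in 4 of 4 (exact p = 0.125). Of all annotated peaks, a denominator added after the data had been seen, GA or TC made up 3.30% ± 0.330 in members and 1.81% ± 0.457 in 1 list, higher in 4 of 4 lists (exact p = 0.125, adjusted p = 0.15), and GAAA or TTTC 16.3% ± 2.55 and 2.40% ± 1.17, also higher in 4 of 4 (exact p = 0.125). The lower part of GA or TC thus holds among simple repeats only. Regions recurrent in free lists only had units of A and C, or of G and T, at 59.0% of 322 simple repeat peaks, where members had 6.66%.

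**Figure D4:**
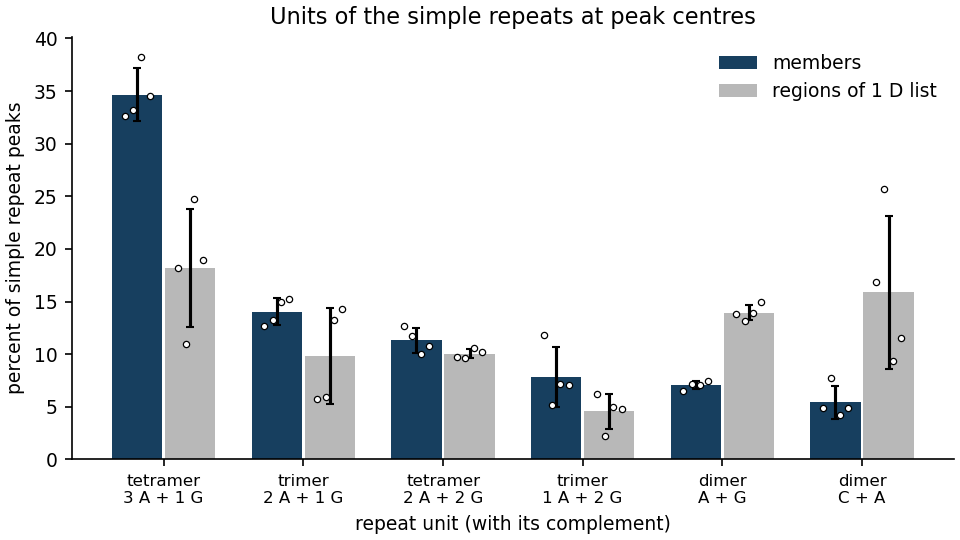
Percent of simple repeat peaks (vertical axis) by repeat unit, given as its make-up and taken with its complement, for members and for regions of 1 DNA-bound list. Bars are means of 4 D lists with SD and points are lists. The tetramer of 3 A and 1 G stands at 34.7% in members and 18.2% in regions of 1 list.

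Where a purine/pyrimidine simple repeat lay in an intron, its strand was set against that of the gene, a comparison added after the data had been seen. Unit names and sequence were on the same strand of the build in 46 of the 46 regions where both were known. The purines lay on the strand of the gene, and so in its transcript, for 27 of 76 such member peaks in D1 (35.5%), 201 of 545 in D2 (36.9%), 223 of 598 in D3 (37.3%) and 185 of 497 in D4 (37.2%). In every list the pyrimidines were thus the commoner sense strand. Regions of 1 D list had purines on the strand of the gene in 42.2% on average, against 36.7% in members, and the members were lower by 3.12 to 10.1 points in 4 of 4 lists (exact p = 0.125). The peaks themselves carried 1 strand label throughout, so the strand of the RNA is not known.

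Interspersed repeats made up smaller shares of the members than of peaks of 1 D list. LINEs took 10.4% against 21.7% of peaks of 1 D list, LTR elements 4.23% against 8.69%, SINEs 2.51% against 5.02% and peaks without a repeat name 17.2% against 44.1%, each lower in 4 of 4 lists (exact p = 0.125, adjusted p = 0.154). Beside D peaks at regions with a free peak the picture was mixed. LINEs stood at 10.7% there (exact p = 0.875). LTR elements stood at 5.98%, above members in 4 of 4 lists, and SINEs at 1.98%, below members in 4 of 4 (exact p = 0.125 for both). Against peaks of 1 D list the direction changed when simple, low-complexity, satellite and ribosomal repeats were left out. LINEs were then 3.04 points, SINEs 1.06 points and LTR elements 1.35 points higher on average in members. L1Md_F2 and L1_Mus3 led the LINEs with 128 and 126 of 1354 peaks, and RMER17C and RMER17C2 the LTR elements with 85 and 74 of 643. Satellite peaks were 0.971% of members, 0.659% of peaks of 1 D list and 2.86% of D peaks at regions with a free peak. Of the 129 in members 127 were IMPB_01.

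By place in genes the members were mainly intergenic, 66.2% ± 0.245 of peaks, or intronic, 32.0% ± 0.0685. The intergenic share was 3.35 points above that of peaks of 1 D list and 4.9005 points above that of regions with a free peak, in 4 of 4 lists each (exact p = 0.125). The second difference was 7.95 points without male 4, 2.89 without the F1 list and 17.3 with peaks weighted by score. Exon peaks made up 0.0267% against 0.408%, lower in 4 of 4 lists (exact p = 0.125, adjusted p = 0.154), and no member peak lay in a 5' untranslated region or a CpG island. Median distances to a start site were 64162 to 67039 bases in the 4 lists, beside 61482.5 to 67766 for peaks of 1 D list. The Y chromosome held 0.811% of member peaks and 0.508% of peaks of 1 D list (higher in 4 of 4 lists, exact p = 0.125), and the X chromosome 2.42% and 3.19% (higher in 1 of 4, exact p = 0.25).

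The nearest genes were counted for 7 gene groups. A total of 4072 genes were nearest to a member, 2861 of them to a single one and 135 to at least 5. Sorcs1, a sorting receptor of neurons, had 16, Lrrc4c, a netrin-G ligand, 13, and Cntnap2, a neurexin-family adhesion protein, 12. These counts stand without those of the same genes among other regions and are not adjusted for gene length, so they show no preference for these genes. Olfactory and vomeronasal receptor genes were nearest to 132 of 6403 members (2.06%) and 2.04% of regions of 1 D list, protocadherin, cadherin and contactin genes to 123 (1.92%) and 1.82%, zinc finger genes to 80 (1.25%) and 1.09%, microRNA genes to 241 (3.76%) and 4.02%, glutamate and GABA receptor genes to 43 (0.672%) and 0.723%, and Y-linked multicopy genes to 8 (0.125%) and 0.0994%. Predicted genes were nearest to 1235 (19.3%) and 18.5%. The exact test over lists gave adjusted p between 0.4375 and 1 over these 7 lists.

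The median height of member peaks was near that of peaks of 1 D list in D2, D3 and D4 and lower in D1. Height is a quantity that the rule used through the calling of peaks, and it was therefore not tested. The median member rested on 29 tags in D1, 44 in D2, 29 in D3 and 27 in D4, beside 36, 43, 28 and 28 for peaks of 1 D list. Of member peaks, 5.71% in D1, 14.2% in D2, 14.3% in D3 and 10.2% in D4 ranked in the top 10% of their list. Among peaks of 1 D list these shares were 8.32%, 8.43%, 8.13% and 8.29%. Heights of the same member in 2 lists were weakly related across regions, with Spearman coefficients of -0.0276 to 0.258 over the 6 pairs of lists, where points share the libraries.

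Of the 118 members in all 4 D lists, 94 held a purine/pyrimidine repeat, and 20 with the highest mean rank were examined one by one. The first lay in an intron of Fbxw7, which recognises substrates of a ubiquitin ligase, at chr3:84912634-84913033, over T-rich sequence, with 112 tags in D1, 168 in D2, 85 in D3 and 114 in D4. The second lay at the end of Cox17, a copper chaperone of cytochrome oxidase, at chr16:38353213-38353612, with 88, 135, 175 and 137 tags in D1 to D4. In tags the diets overlapped at Fbxw7, and at Cox17 both HFD lists were above both ND lists. By rank within the list the diets overlapped at Cox17 as well, with D2 (percentile 99.35) above D4 (99.31). Tags here are counts in each list and are not adjusted for depth, and the peaks of the lists held 9913057 tags in D1, 9763408 in D2, 1812719 in D3 and 1800579 in D4.

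Purine/pyrimidine repeats came next. In an intron of Bmper, which binds bone morphogenetic proteins, (TTTC)n or (TTCCC)n at chr9:23404542-23404985 had 87, 124, 92 and 86 tags, with a free peak only 114 bases away. Near Mir6239 (GA)n at chr14:117999545-118000115 had 83, 99, 164 and 188 tags, the HFD lists above the ND lists, but its peaks formed a chain with no base common to all 4. In an intron of Akirin2, a nuclear factor of proteasome import, (GA)n at chr4:34553457-34553934 had 65, 67, 159 and 68 tags, D3 standing alone in tags. By rank within the list D3 (percentile 99.4) and D4 (96.1) were above D1 (83.0) and D2 (87.2).

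Downstream of Ctgf, a secreted matrix protein also called Ccn2, (GGAA)n at chr10:24600731-24601192 had 138, 143, 111 and 37 tags, with D4 the lowest. In an intron of Lrrtm4, a synaptic membrane protein, (GGA)n at chr6:80492197-80492596 had 55, 127, 66 and 56 tags, with D2 the highest and 4 bases common to all lists. Near Top1, DNA topoisomerase I, (GAA)n at chr2:160566576-160566975 had 53, 49, 81 and 62 tags, and the diets did not overlap. Near Il6, the gene of the cytokine interleukin 6, (GAAA)n, A-rich in D3, at chr5:29987313-29987712 had 37, 100, 85 and 89 tags, and D1 was the lowest.

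Some of these members were far higher in 3 lists than in D1. Near B930025P03Rik, over (GAAA)n in D1 and A-rich sequence in the others, at chr8:10646920-10647319, the tags were 34, 551, 622 and 233, which made it the highest member of D2 and of D3. In an intron of Saxo1, a microtubule protein of the sperm axoneme, chr4:86547821-86548220 had 40, 361, 460 and 201 tags over (GAAA)n in D1 and no repeat in the others, and near Gm2837 on the X chromosome (TTTC)n had 21, 232, 322 and 121. In an intron of Alpl, an alkaline phosphatase, chr4:137760550-137760949 had 31, 145, 249 and 110 tags, over (GAAA)n in D1 and a B1 element in the others. An Lx8 LINE near Gm12596 had 36, 99, 112 and 118. In tags the same order, D3 above D2 above D4 above D1, held near B930025P03Rik, Saxo1, Gm2837 and Alpl, which were set together after their values had been seen. It is an order of counts not adjusted for depth, and 1 tag stood for a score of 0.322 in D2 and 2.44 in D3. By rank within the list D1 was again the lowest, but D2 stood just above D3 near B930025P03Rik, Saxo1 and Gm2837.

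**Figure D5:**
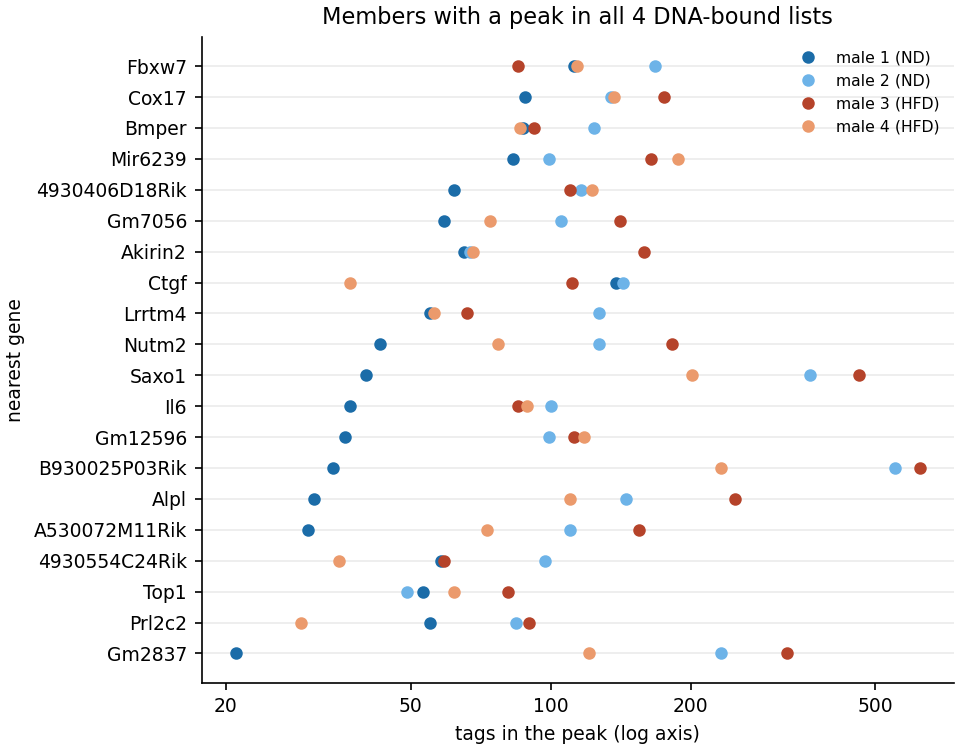
Tags in the peak (horizontal axis, logarithmic) for the 20 members in all 4 DNA-bound lists with the highest mean rank, named by nearest gene in the order of that rank, 1 point per D list. D1 is the lowest point near Il6 and Alpl, with 37 and 31 tags, and the members near B930025P03Rik and Saxo1 reach 622 and 460 in D3.

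The 2 highest members of D1 rested on far fewer tags, or had no peak, in the other lists. A ribosomal RNA repeat (LSU-rRNA) near 4930433N12Rik, at chr9:3258672-3259071, had 50874 tags in D1 and 55, 30 and 61 in D2, D3 and D4. A region annotated to the promoter of Mir6236, at chr9:110281126-110281525, had 33505 tags in D1, 117 in D2 and no peak in D3 or D4. Promoter peaks carried no repeat name in the D lists, so whether a ribosomal or other repeat lies there is not known. The mature miRNA lies within that region at chr9:110281353-110281371, and its sequence from RefSeq is given with the seed, bases 2 to 8, in capitals.
mmu-miR-6236: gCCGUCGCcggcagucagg
Peaks of this size cannot be assigned to the miRNA from a region of 400 bases.

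Beside these, the highest members of single lists were a (GAAA)n in an intron of Col12a1, a collagen chain, with 18 tags in D1, 437 in D3 and 207 in D4, T-rich sequence near I730028E13Rik with 123 tags in D2, 377 in D3 and 247 in D4, and the promoter of Sfi1, a centrin-binding protein, with 387 tags in D2 and 75 in D3. Members near Arap2, near Adcy2 and in an intron of Vit had 2 other members each within 10000 bases. Those of Adcy2 and Vit held (GAAA)n, with 78, 69 and 56 tags in D2, D3 and D4 for the first.

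Members at promoters, gene ends or exons were few. A peak of such a class occurred in 115 members, and in 14 members it occurred in at least 3 D lists. The promoter of Snapin, a SNARE-associated protein, at chr3:90491012-90491411 had 86, 198 and 69 tags in D2, D3 and D4. The end of Zbp1, a sensor of Z-form nucleic acid, had 48, 42 and 71 with no base common to all 3, the end of Pou1f1, a pituitary transcription factor, 62, 38 and 43, and the 3' untranslated region of Rorb, a nuclear receptor, 66, 49 and 30. The promoter of Sult2a1, a sulfotransferase, with 31, 26 and 31 tags, and that of the olfactory receptor gene Olfr670, with 25, 44 and 38, were lower. D1 had no peak at any of these.

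The number of members by diet differed by less than the spread between males. HFD lists held 4018 members on average and ND lists 3013.5, but the ND lists themselves held 508 and 5519 (exact permutation test over 6 splits of the 4 males, two-sided, p = 1). As a share of each list's peaks, member peaks made up 14.8% of D1, 11.1% of D2, 18.6% of D3 and 18.0% of D4, so that both HFD lists were above both ND lists (18.3% against 12.9% on average, exact p = 0.333, the smallest that 2 males against 2 allow). A list held a member only where another D list shared it, so its share depends on the other lists too. List length differed between the males at the same time, and its part was not tested. These tests therefore cannot separate diet from list length. The HFD lists alone held 744 members (11.6%), such as one in an intron of Abcb1a, a drug-efflux transporter, with 73 tags in D3 and 83 in D4. The ND lists alone held 165 (2.57%), such as IMPB_01 near Atxn10 with 106 tags in D1 and 90 in D2. Regions without a free peak numbered 3105 in D1, 45335 in D2, 21353 in D3 and 19836 in D4. The counts of 744 and 165 are not adjusted for this and show no difference by diet.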

How the data were processed

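RNA of the free and the DNA-bound fraction of sperm was sequenced from 4 Dnmt2-/- males. The authors trimmed the reads, aligned them with Hisat2 to GRCm38 and ran the HOMER peak finder on every library by itself against its local background, and the submitters' processing notes name FastQC, cutadapt, Trimmomatic 0.36, Salmon and HOMER 4.9. The deposited lists give for each peak a position on mm10, a score assigned by the authors' peak caller, and the annotation and repeat at its centre. Peak scores were divided by the largest step that gave whole numbers in a list, taken as 1 tag, and 100% of scores under 100 were whole tags within 0.2. Tags of higher peaks are approximate because scores were rounded. Scores were ranked within a list only, since depth and scaling differ. Wilson intervals at 95% cover counting error only. A count of 0 allows 3 counts.

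Lists were merged, grouped and tested in Python 3.11.15 (scipy 1.17.1, numpy 2.4.6, pandas 2.3.3) and drawn with matplotlib 3.10.9, by code tested on simulated data. Shares were compared between members and other D regions within each library by an exact sign-flip permutation test (16 patterns, two-sided), because both values come from 1 library of 1 male, and diets over 6 splits. Members were called by the nearest gene in the lists. Those named were up to 20 of all 4 D lists by mean rank of score, the 3 highest of each D list, up to 10 with a genic class in at least 3 D lists, the 3 highest of each diet alone and the 3 with most neighbours within 10000 bases. Members and lists were chosen with earlier results of these data known. Columns of values left unused numbered 0. Wild-type males gave 8 further libraries, not used here, and 450 peaks without annotation stayed out of the shares. No genome of the build was used, so sequence came from RefSeq GRCm38.p6 promoter windows and miRNAs and from exons in GENCODE. Alternatives covered the number of lists, the overlap, the height of peaks, repeat classes, single males and an unpaired test.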

Additional observations from a re-analysis of the deposited data

Results flagged for a closer look

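Of 47 groups of 4 D lists examined, 4 held 1 list far from the others, where chance gives about 1 in 20. D2 stood apart at Bmper with 124 tags, D3 at Akirin2 with 159 tags and D2 at Lrrtm4 with 127 tags. D1 stood apart at the ribosomal RNA repeat near 4930433N12Rik with 50874 tags. All 4 were groups of tags, which were not adjusted for depth, and 1 tag stood for a score of 0.322 in D2 and 2.44 in D3. By rank within the list D2 did not stand apart at Bmper, where D1 was the lowest (percentile 92.0, beside 99.1 in D2). At Akirin2 D3 (percentile 99.4) stood beside D4 (96.1). D2 remained the highest at Lrrtm4 (99.2), and D1 at the ribosomal RNA repeat (99.3). The rate of 1 in 20 therefore need not apply to these groups of tags, and the part of depth was not tested.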

How the results depend on the processing

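The number of members, 6417, followed the rule and the longest list. It was 1111 with at least 3 D lists, 2017 without D peaks under the median score and 1936 without the D2 list, and 1980 to 6187 when 1 male was left out, lowest without male 2 and highest without male 1, with 3345 without male 3 and 3892 without male 4. Every alternative kept the sign of the 6 differences in simple, purine/pyrimidine and intergenic shares. The purine/pyrimidine difference from regions of 1 D list ranged from 29.4 to 58.1 points, and with 1 male left out from 36.1 to 49.7. Against regions with a free peak the simple repeat difference ranged from 7.43 to 33.0 points (8.54 to 20.1 with 1 male left out) and the intergenic difference from 2.89 to 17.3 (3.40 to 7.95). With no replicate block, so that the pairing by library was given up, the exact p was 0.0286, the smallest of that test, for the differences of 34.0 and 10.4 (simple repeats), 3.35 and 4.9005 (intergenic) and 39.7 and 29.0 points (purine/pyrimidine).

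Between members and peaks of 1 D list, 13 of 16 other classes had 1 sign in all 4 lists. When simple, low-complexity, satellite and ribosomal repeats were left out, 8 did. There LINE (3.04 points), SINE (1.06), LTR (1.35), promoter (1.12) and gene-end peaks (0.947) changed sign. Without D peaks under the median score promoter (0.207) and gene-end (0.145) peaks did, and with peaks weighted by score promoter (8.02), satellite (-0.397) and ribosomal repeats (10.1) did. Ribosomal repeats ranged from -0.186 to 0.0270 with 1 male left out. The cause was not tested. Of 221 such values 199 kept direction and side. A GC correction was not run. Counting limits rare classes, most of all among the 508 member peaks of D1.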
